A study of Homo sapiens with 8 samples.

Results

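Long intergenic non-coding RNAs are transcripts that lie between coding genes and are not translated into a known protein. Those without a name of their own carry a symbol that joins LINC to a number. As a class they are known for low levels and for expression that differs strongly between cell types. Some act on nearby genes on the same chromosome and others work elsewhere in the nucleus or in the cytoplasm, and most have no described function. The genes described here are the LINC genes that gave a detectable signal in 2 cell lines of the human prostate. They were chosen by their symbol and by measured level, so their levels describe the choice and are not a finding. A gene was taken when a cluster annotated to that symbol alone had a mean signal of 5 or more on the log2 scale in at least 1 of the 4 groups, and each symbol was represented by its brightest cluster. The array holds 554 such clusters for 538 LINC symbols. Of these, 139 genes passed and 399 did not.

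The epithelial line BPH-1 comes from a hyperplastic human prostate and was grown in RPMI1640. The stromal line WPMY-1 consists of prostate myofibroblasts and was grown in DMEM. Both lines were kept for 24 h with either vehicle or RWF, a root bark extract of Rauwolfia vomitoria, at a dose of 250 μg/ml. Total RNA was read on 2 arrays in each of the 4 groups. All groups had the same serum and antibiotics, and each line is 1 cell line in its own medium, so line and medium cannot be told apart. The labels leave unstated whether the arrays within a group were made from different cultures. The p-values therefore reflect the spread between arrays alone, which may be technical.

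The 2 arrays of a group had correlations of 0.995 to 0.997 over all 67528 clusters and of 0.981 to 0.991 over the 139 LINC genes. Against the cell type labels, limma called 13 of 14 measured epithelial markers higher in BPH-1 and 13 of 14 stromal markers higher in WPMY-1 without extract, the exceptions being CLDN4 and ACTA2. Of 8 measured markers of blood, endothelial and neuroendocrine cells, 4 had a group mean of 5 or more. These were CD68, VWF, CHGA and SYP, with means over the 8 arrays of 7.84, 5.11, 5.76 and 5.4. CDH5, CD3E, PECAM1 and PTPRC lay at 4.70, 4.26, 3.07 and 2.43. SYP was called higher in BPH-1 (-0.41, adjusted p = 0.0144), and its part in the results was not tested. The median cluster of an array lay between 4.5 and 4.58, and 45.5% of all clusters met the same level rule. A value near 5 can therefore be background, and the deposited table has no detection call that would separate the cases.

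Over the 8 arrays the 139 genes had a median signal of 5.49, from 4.48 to 9.60. Most were dim. 18 lay below 5, 82 between 5 and 6, 24 between 6 and 7, 7 between 7 and 8, and 8 above 8. In 103 genes all 4 groups reached 5, in 7 genes 3 groups did, in 19 genes 2 groups and in 10 genes 1 group. The genes just inside the rule were LINC01686, LINC02584 and LINC00942, whose highest group means were 5.023, 5.028 and 5.031. Those just outside were LINC01545, LINC00961 and LINC00864, at 4.987, 4.958 and 4.957. RefSeq lists 127 of the 139 symbols as current, and the other 12 are older symbols of genes that now have another name. By RefSeq, 135 of the 139 are lncRNA genes, 3 are now coding genes (LINC00083, LINC00684 and LINC00959, now CLEC20A, FAM236A and C10orf143) and LINC00505 is now the pseudogene FAAHP1.

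The 10 highest mean signals belonged to LINC01000 (9.60), LINC00273 (8.85), LINC01001 (8.77), LINC01002 (8.69), LINC00999 (8.42), LINC00265 (8.38), LINC00963 (8.23), LINC01061 (8.06), LINC00152 (7.78) and LINC03009 (7.66). Signals of different clusters depend on their probes, so this order is not an order of RNA amounts. LINC00963, described in prostate cancer for its part in androgen-independent growth, varied little across the study. Its values were 8.24 and 8.19 in vehicle-treated BPH-1, 8.15 and 8.26 with RWF, 8.30 and 8.22 in vehicle-treated WPMY-1 and 8.28 and 8.23 with RWF. The 4 groups overlapped. A second cluster of LINC00963, at a mean of 6.24, differed between the lines by 0.71 (adjusted p = 0.000402 by limma, WPMY-1 minus BPH-1), against 0.0419 in the brightest cluster, so its clusters disagree. LINC01000 had overlapping vehicle values of 9.70 and 9.50 for BPH-1 and of 9.55 and 9.31 for WPMY-1 (difference -0.17, adjusted p = 0.363).

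The first comparison asked which LINC genes differed between the epithelial and the stromal line without extract. Higher in WPMY-1 were LINC01551, LINC00857, LINC02693 and LINC00667, and higher in BPH-1 were LINC01002, LINC00960, LINC02210 and LINC01061, among others. limma, fitted on all clusters with p-values adjusted over all of them, called 13 of the 139 genes higher in WPMY-1 and 19 higher in BPH-1. Over all clusters 7.82% were called higher in WPMY-1 and 8.82% higher in BPH-1. Part of the count follows from the choice, since a gene that reached 5 through 1 line had to be lower in the other or close to the threshold. There were 12 genes that reached 5 in BPH-1 groups alone, of which 8 were called, and 13 that reached it in WPMY-1 groups alone, of which 4 were called. Of the 114 genes that reached 5 in both lines, 9 were called higher in WPMY-1 and 11 higher in BPH-1. Among the 121 genes with a mean of 5 or more over all 8 arrays, 20.7% were called in either direction, beside 28.5% of all clusters with such a mean. The median difference over the 139 genes was -0.0846 (log2, WPMY-1 less BPH-1), with quartiles at -0.22 and 0.0439, and over all clusters it was -0.012. Without BPH-1 vehicle replicate 2 the 32 calls became 21.

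LINC01551 had the largest difference of the 139 genes. With vehicle it stood at 4.10 and 4.06 in BPH-1 but at 6.64 and 6.58 in WPMY-1. The arrays did not overlap, and the BPH-1 values lay below the array median, so the gene was included through WPMY-1 alone. This gave a log2 difference of 2.53 (SE 0.10) with an adjusted p of 1.58e-06 by limma. Where the BPH-1 signal is background the value is a lower bound, and no fold is given.

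LINC00857, known for promoting growth in several cancers, had 6.04 and 5.94 in vehicle-treated BPH-1 and 7.33 and 7.24 in vehicle-treated WPMY-1. Its level was above 5 in both lines, and the difference was 1.3 (2.45-fold, SE 0.0835, adjusted p = 1.82e-05). LINC02693 stood at 5.70 and 5.69 against 6.79 and 7.07, a difference of 1.24 (adjusted p = 6.95e-05). LINC00667 stood at 5.8 and 5.57 against 6.73 and 6.57, a difference of 0.97 (adjusted p = 0.00205), and its second cluster had 0.35 and did not pass (adjusted p = 0.0651). The arrays of the lines were apart in each of these genes. LINC00294 (0.74), LINC01004 (0.72), LINC00152 (0.53) and LINC01963 (0.47) were also higher in WPMY-1 with both lines above 5. LINC00152 is the older symbol of CYTOR, a cytoskeleton regulator RNA. Its values, 7.80 and 7.44 for BPH-1 and 8.34 and 7.98 for WPMY-1, were the widest apart within a group among these 4, and its call held in 2 of the 8 fits that left out 1 array and was lost after quantile normalization (adjusted p = 0.0514). LINC00597 (0.90) and LINC02985 (0.82) were included through WPMY-1 alone. The WPMY-1 vehicle values of LINC00597 were 5.48 and 4.77, and its difference ranged from 0.54 to 1.25 with 1 array left out. The calls of LINC00597 and LINC01004 held in 6 of those 8 fits and that of LINC01963 in 7. Without BPH-1 vehicle replicate 2 the adjusted p was 0.108 for LINC01004 and 0.0577 for LINC01963.

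In the other direction, 3 of the 6 largest differences belonged to genes whose start regions are near copies of each other. LINC01002 had 9.70 and 9.52 in vehicle-treated BPH-1 and 7.85 and 7.68 in vehicle-treated WPMY-1, a difference of -1.85 (3.6-fold, SE 0.0932, adjusted p = 4.82e-06). LINC01061 had 8.76 and 8.51 against 7.74 and 7.22, a difference of -1.15 (adjusted p = 0.00149). LINC01001 had 9.26 and 9.21 against 8.36 and 8.11, a difference of -1.0 (2.0-fold, adjusted p = 0.00019). All 3 were higher on both BPH-1 arrays than on both WPMY-1 arrays.

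RefSeq places LINC01001 at chr11:131804-132103, LINC01002 at chr19:202160-202459 and LINC01061 at chr4:119410611-119410910, all on the minus strand of GRCh38.p14. These windows run from 250 bases before each start to 50 bases after it. They are shown because the likeness bears on whether the clusters are separate readings. Capitals mark the stretches of 20 or more bases that all 3 windows hold, which come to 213 of the 300 bases in 4 runs, the longest of 66 bases.
LINC01001: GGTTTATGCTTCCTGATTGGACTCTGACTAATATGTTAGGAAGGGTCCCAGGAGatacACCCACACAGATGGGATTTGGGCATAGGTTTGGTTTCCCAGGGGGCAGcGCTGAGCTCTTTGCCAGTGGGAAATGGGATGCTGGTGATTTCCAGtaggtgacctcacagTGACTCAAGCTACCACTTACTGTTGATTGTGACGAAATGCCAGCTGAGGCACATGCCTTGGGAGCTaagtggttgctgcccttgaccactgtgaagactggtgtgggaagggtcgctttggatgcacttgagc
LINC01002: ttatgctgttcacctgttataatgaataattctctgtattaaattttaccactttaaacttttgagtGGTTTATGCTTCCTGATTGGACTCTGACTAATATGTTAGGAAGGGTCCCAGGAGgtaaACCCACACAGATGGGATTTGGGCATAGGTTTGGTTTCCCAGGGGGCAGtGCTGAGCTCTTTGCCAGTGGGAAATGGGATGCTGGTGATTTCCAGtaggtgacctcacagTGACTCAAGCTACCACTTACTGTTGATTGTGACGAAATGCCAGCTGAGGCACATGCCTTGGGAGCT
LINC01061: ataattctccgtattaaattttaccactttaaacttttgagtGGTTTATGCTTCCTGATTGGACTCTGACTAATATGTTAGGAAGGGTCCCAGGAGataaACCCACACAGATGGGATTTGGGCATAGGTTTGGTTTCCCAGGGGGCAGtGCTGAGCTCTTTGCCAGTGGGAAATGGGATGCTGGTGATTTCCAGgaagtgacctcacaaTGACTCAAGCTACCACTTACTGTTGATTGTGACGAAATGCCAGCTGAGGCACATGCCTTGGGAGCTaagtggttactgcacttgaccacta
No other pair among the 96 LINC genes with a window in the RefSeq table shared as many as 50 of 281 overlapping words of 20 bases, while these 3 pairs shared 171, 148 and 192. Whether the probes of the clusters are also alike was not tested, so the 3 values may not be separate and each is uncertain. The RWF differences of LINC01002, LINC01061 and LINC01001 were -0.0498, 0.11 and 0.0543 for BPH-1 and 0.0385, -0.10 and 0.11 for WPMY-1, and none passed.

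LINC00960 and LINC02210 were each read by further clusters, which give the same direction. LINC00960 had 6.41 and 6.45 in vehicle-treated BPH-1 and 4.94 and 4.72 in vehicle-treated WPMY-1, a difference of -1.59 (SE 0.0996, adjusted p = 1.51e-05). It reached 5 in BPH-1 groups alone, so its WPMY-1 signal may be background and no fold is given. Its second cluster had -1.44 (adjusted p = 1.1e-05). LINC02210 had 8.29 and 8.30 against 6.98 and 6.63, a difference of -1.49 (2.81-fold, SE 0.14, adjusted p = 0.000167). Its other clusters, at means of 4.17 and 4.28, had -0.72 and -0.84 and also passed. Both means lay below the median cluster of the arrays, so these signals may be partly background. LINC00601 had 5.37 and 5.36 against 3.80 and 4.28 and was included through BPH-1 alone, with a difference of -1.33. Also included through BPH-1 alone and called were LINC00278 (-0.95), LINC00958 (-0.90), LINC03033 (-0.86) and LINC02582 (-0.78). LINC00958, described in bladder cancer, was called in 4 of the 8 fits that left out 1 array, and in none of those without a vehicle array, where its difference stayed between -0.98 and -0.82. LINC03033 was called in 6 and missed the threshold without BPH-1 vehicle replicate 1 and without WPMY-1 vehicle replicate 2, with an adjusted p of up to 0.186, and also after quantile normalization (-0.79, adjusted p = 0.055). LINC00999 (-0.70) and LINC00265 (-0.53), from the brightest 10, were higher in BPH-1 with group means above 8 in both lines.

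**Figure D1:**
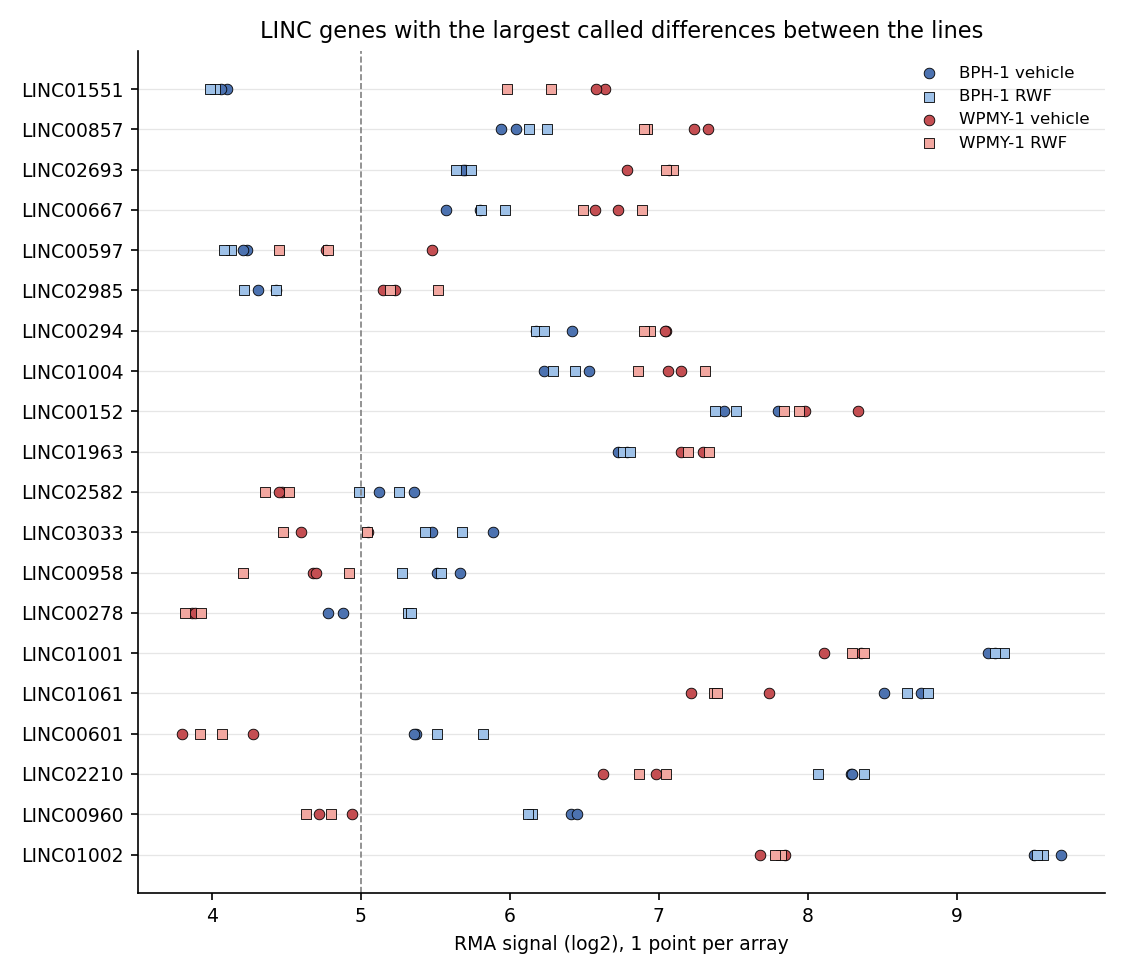
RMA signal on the log2 scale (x axis) of the 20 LINC genes with the largest called differences between vehicle-treated lines, 10 in each direction, with 1 point per array, colours and shapes for the 4 groups, and a dashed line at the level threshold of 5. LINC01551 lies between 3.99 and 4.10 on all BPH-1 arrays and between 5.98 and 6.64 on all WPMY-1 arrays, and within most genes the squares (RWF) sit close to the circles (vehicle) of the same line.

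**Figure D2:**
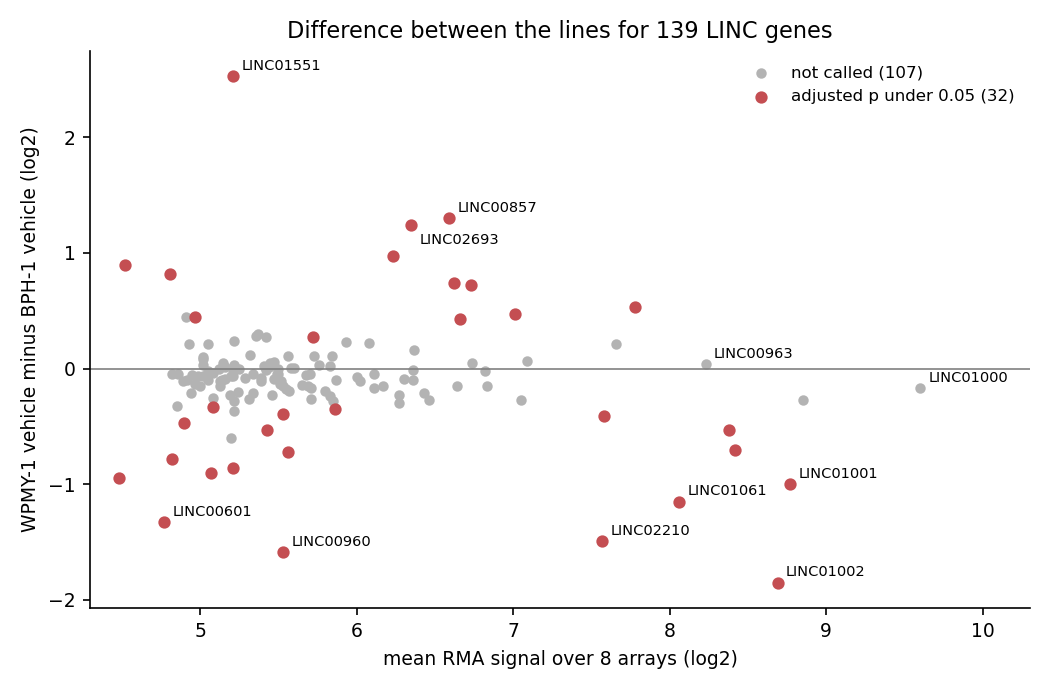
Difference between vehicle-treated WPMY-1 and BPH-1 cells (y axis, log2) against the mean signal over 8 arrays (x axis, log2) for the 139 LINC genes, with the 32 called genes in red. The called genes spread from a mean signal of 4.48 (LINC00278) to 8.77 (LINC01001). The brighter LINC01000 and LINC00273 were not called, and LINC01000 and LINC00963 among the brightest lie near 0.

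The list of LINC genes studied in cancer, set with earlier results known, had 17 of 27 genes measured and 9 that met the level rule. In the comparison of the lines 1 was higher in WPMY-1, LINC00152, and 2 were higher in BPH-1, LINC00958 and LINC00467 (-0.72, adjusted p = 0.0016). The median of the list was 0.0419. LINC00707 had -0.60 and missed the threshold (adjusted p = 0.0598), but passed in 5 alternatives: with the replicate block (adjusted p = 0.0184), with dim clusters left out (0.0295), with 1 cluster per gene (0.0293) and without either WPMY-1 RWF array (0.0117). LINC00941 (0.0654) and LINC00665 (0.22) did not pass. No gene of this list was called for RWF in either line. A separate short list of 12 LINC symbols known to have been replaced by gene names, not the 12 older symbols counted above, had 3 measured genes, of which LINC00152 alone met the level rule. Beside these, 32 of 60 lncRNAs with names of their own were measured, a list also set with earlier results known, and 22 met the level rule. limma called 6 of the 32 higher in WPMY-1 and 7 in BPH-1. Over all clusters, 7.82% were called higher in WPMY-1 and 8.82% in BPH-1. Some differences of this list went past those of the LINC genes in both directions. UCA1 had -4.61, CCAT1 -3.85 and MIR99AHG 3.21.

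For 120 of the 139 genes the nearest coding gene in the RefSeq annotation had a cluster of its own. That gene's value comes from another cluster, which the choice of LINC genes did not use. The coding gene was taken at any distance, overlap included, and the same one could be nearest to several LINC genes. Whether probes of such clusters overlap was not tested. Of the 25 called LINC genes with such a neighbour, 12 neighbours were called in the same direction and none in the opposite one, and the other 13 did not pass. These 13 include LILRA3 (0.00909) as the neighbour of LINC01002. The position of LILRA3 may be that of an alternate locus, so this pair is uncertain. Over the brightest cluster of each coding gene, 29.6% were called in either direction. Among the 12, LINC00278, LINC00597, LINC00894, LINC00958, LINC02582, LINC02894 and LINC03033 reached 5 through 1 line alone. Their own call and direction partly follow from the choice, so the count of 12 is a description and no test of a link between neighbours. LINC00857 at 1.3 lies next to ANXA11, which encodes a calcium-dependent phospholipid-binding protein and had 0.88. LINC00597 at 0.90 lies next to PEAK1, a pseudokinase gene, at 1.18. LINC00294 at 0.74 lies next to TCP11L1 at 0.54.

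On the BPH-1 side LINC02894 at -0.47 lies next to ESRP1, the epithelial splicing regulator, at -4.57. LINC03033 at -0.86 lies next to PRKCH, a protein kinase C gene, at -2.90, and LINC02582 at -0.78 next to NETO1 at -2.54. LINC00479 at -0.39 lies next to RIPK4, a kinase of epithelial differentiation, at -1.31. The call of LINC02894 was lost without either BPH-1 vehicle array or without WPMY-1 vehicle replicate 1 (adjusted p of 0.0638 to 0.0887), and that of LINC00479 without BPH-1 vehicle replicate 2 or WPMY-1 vehicle replicate 1 (0.109 and 0.0744). LINC00601 (-1.33) and LINC00667 (0.97) had neighbours that did not pass, C10orf90 (0.12) and AKAIN1 (-0.0951). Over the 120 pairs the differences of gene and neighbour had a Pearson r of 0.301 and a Spearman rho of 0.271, a description across genes on the same 4 arrays. Whether a neighbour's transcript that runs into a LINC gene adds to its signal was not tested.

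**Figure D3:**
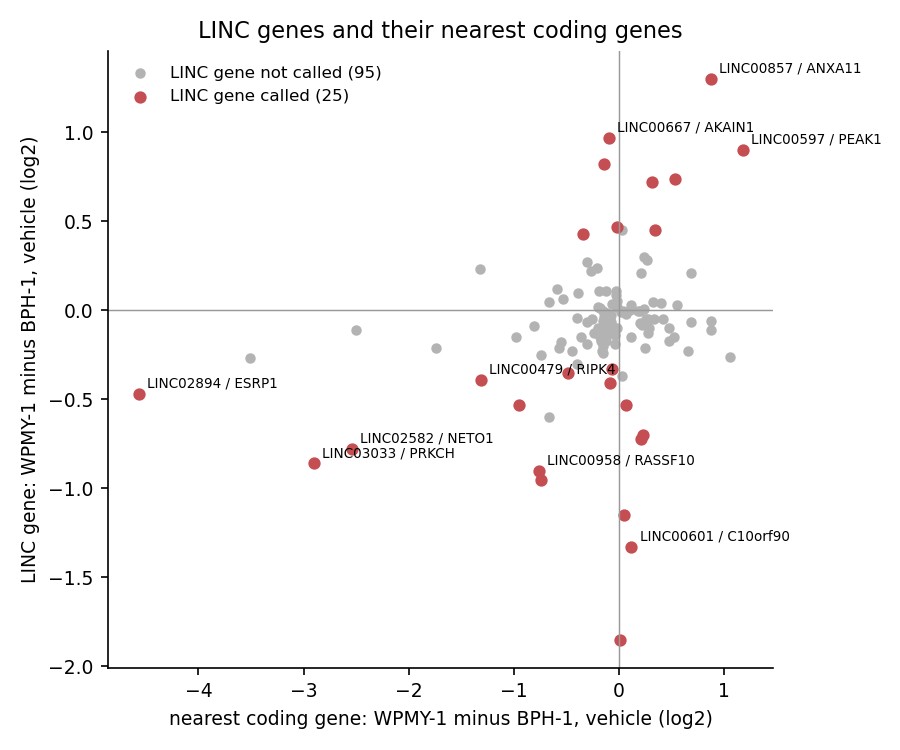
Difference between vehicle-treated WPMY-1 and BPH-1 cells on the log2 scale for 120 LINC genes (y axis) against that of their nearest coding gene (x axis), with the 25 called LINC genes in red. 12 of the red points have a called neighbour on the same side of 0, and ESRP1 beside LINC02894 is the farthest to the left at -4.57. Some red points, LINC02894 among them, are genes that reached the level threshold of 5 through 1 line alone.

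The second comparison asked which LINC genes changed with RWF in each line. In BPH-1 none of the 139 genes passed limma, beside 0.04% of all clusters. At an unadjusted p under 0.05 there were 6 higher and 2 lower genes, or 5.76% beside 5.83% of all clusters, and the methods' t-test called 0 after adjustment. The median difference was -0.00364, with quartiles at -0.0522 and 0.0716, and 127 of the 139 lay within 0.2 of 0. In WPMY-1 1 gene rose, LINC02035, and none fell, beside 0.625% and 0.905% of all clusters. In either direction 0.719% of the LINC genes were called in WPMY-1, beside 1.53% of all clusters, which is 1 gene and no result about the LINC genes. At an unadjusted p under 0.05 there were 23 higher and 7 lower genes in WPMY-1, or 21.6% beside 19% of all clusters. 6 genes reached 5 in the RWF-treated WPMY-1 group alone, which favours positive values, and 4 of these were among the 23. Among the other 133 genes 19 were higher and 7 lower, or 19.5%, and 84 were positive. The median difference in WPMY-1 was 0.0612, and that over all clusters was 0.0379. After median centring the numbers were 0.00571 and -0.0176, and 73 of the 139 genes were positive in place of 90, so the lean to positive values also depends on the scaling.

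LINC02035 was the gene with the largest RWF difference in WPMY-1. Its values there were 5.17 and 5.20 with vehicle and 5.96 and 6.16 with RWF. Both RWF arrays lay above all others in the study. With RWF it rose by 0.87 (log2; 1.83-fold) with an SE of 0.0941 and an adjusted p of 0.00688 by limma, and with each array left out in turn the value was 0.78 to 0.97 and the adjusted p 0.0121 to 0.047. In BPH-1 it had 4.88 and 4.90 with vehicle and 5.27 and 5.43 with RWF, a difference of 0.46 (1.37-fold, adjusted p = 0.26) with arrays that did not overlap. It was the only gene of the 139 past 1.3-fold in the same direction with arrays apart in both lines. The difference between its RWF values in the lines was 0.41 (adjusted p = 0.476). LINC02035 lies next to SLC49A4, the gene of a lysosomal transporter. SLC49A4 had 8.24 and 8.29 with vehicle and 8.78 and 8.76 with RWF in WPMY-1 and rose by 0.51 (adjusted p = 0.0225). In BPH-1 it had 7.99 and 8.07 with vehicle and 8.37 and 8.43 with RWF, a difference of 0.37 (adjusted p = 0.256). The RWF arrays of SLC49A4 were thus above the vehicle arrays in both lines, as those of LINC02035 were.

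LINC00886 had the next largest positive difference in WPMY-1. Its values were 5.08 and 5.21 with vehicle and 5.61 and 5.59 with RWF, a difference of 0.45 (adjusted p = 0.0828), and in BPH-1 4.90 and 4.92 with vehicle and 5.06 and 5.37 with RWF, a difference of 0.30 (adjusted p = 0.727), which ranged from 0.15 to 0.46 with 1 array left out. The arrays were apart in both lines and neither value passed. With fewer clusters in the adjustment LINC00886 passed in WPMY-1, at an adjusted p of 0.0414 with dim clusters left out and 0.0376 with 1 cluster per gene.

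The RefSeq start regions of LINC02035, at chr3:122886263-122886562 on the plus strand, and of LINC00886, at chr3:156817013-156817312 on the minus strand of GRCh38.p14, are shown because these genes had the largest RWF values in WPMY-1. The motifs searched on both strands were CACGTG, an E-box of lysosomal and clock genes, TGATGNAAT, bound by ATF4 with C/EBP proteins, TGANTCA, bound by AP-1, TGACGTCA, bound by CREB and ATF proteins, TGACNNNGC, bound by NRF2, and GCGTG, the core bound by the aryl hydrocarbon receptor. Capitals mark each match.
LINC02035: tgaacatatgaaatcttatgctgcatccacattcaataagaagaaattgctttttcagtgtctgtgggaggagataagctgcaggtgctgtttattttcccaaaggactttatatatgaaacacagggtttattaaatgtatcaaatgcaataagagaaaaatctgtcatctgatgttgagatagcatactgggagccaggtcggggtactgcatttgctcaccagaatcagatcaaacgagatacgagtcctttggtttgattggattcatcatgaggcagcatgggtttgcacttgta
LINC00886: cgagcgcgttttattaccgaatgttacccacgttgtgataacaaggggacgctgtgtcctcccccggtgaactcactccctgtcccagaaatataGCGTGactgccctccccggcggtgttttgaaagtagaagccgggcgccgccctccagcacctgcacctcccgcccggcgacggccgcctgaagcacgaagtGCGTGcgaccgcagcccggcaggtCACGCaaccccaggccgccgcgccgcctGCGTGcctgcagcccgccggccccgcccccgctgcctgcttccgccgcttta
The LINC02035 window holds none of these letters and has a GC content of 39.3%, while the LINC00886 window holds 4 copies of GCGTG and has a GC content of 67.7%. GCGTG is in 37.5% of the 96 LINC windows and in 36.3% of 27305 windows of that length, so it is common. TGANTCA, which each of the 3 near-copies holds, is in 11.5% of the LINC windows and 7.76% of all, CACGTG in 4.17% and 7.43%, TGACNNNGC in 24.0% and 13.6%, TGACGTCA in 3.12% and 1.98%, and TGATGNAAT in 0 and 1.02%. A match is a run of letters and not a site. The LINC windows held a median of 11 CG pairs, all 27305 windows 14 and the windows of coding genes 23. The 28 LINC windows whose gene had a mean signal of 6 or more held a median of 17.5, and the other 68 held 8.5.

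The smallest p among negative RWF differences in WPMY-1 belonged to LINC01551 and LINC00857. Both were higher in that line, a comparison that uses the same WPMY-1 vehicle arrays. LINC01551 had 6.64 and 6.58 with vehicle and 6.28 and 5.98 with RWF, a difference of -0.48 (adjusted p = 0.0669), and -0.0711 in BPH-1, where it is near background. LINC00857 had 7.33 and 7.24 with vehicle and 6.92 and 6.90 with RWF, a difference of -0.38 (adjusted p = 0.0701). In BPH-1 it went the other way, from 6.04 and 5.94 to 6.13 and 6.25, a difference of 0.20 (adjusted p = 0.818). The RWF and vehicle arrays did not overlap for LINC01551 in WPMY-1 or for LINC00857 in either line, and none of these values passed. Both genes passed in WPMY-1 with dim clusters left out (adjusted p of 0.0326 for LINC01551 and 0.0353 for LINC00857), and LINC01551 also after median centring (adjusted p = 0.0474). In WPMY-1 the same arrays showed 5 of 14 stromal markers called lower with RWF and none higher, beside 0.905% and 0.625% of all clusters. The other stromal markers did not pass. The part of such marker differences in the values of LINC01551 and LINC00857 was not tested. The difference of LINC00857 between the lines was -0.58 (SE 0.12, adjusted p = 0.284), the smallest interaction p of the 139 genes. It was followed by LINC00278 (-0.51), LINC01164 (0.37), LINC02035 (0.41) and LINC01551 (-0.40), and none of the 139 passed, beside 0.00592% of all clusters. At an unadjusted p under 0.05 there were 7 positive and 3 negative interaction values, or 7.19% beside 8.61% of all clusters.

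The other genes with the smallest p in WPMY-1 were LINC01164 (0.33), LINC00237 (0.36) and LINC00869 (0.29) among positive and LINC03009 (-0.28), LINC00472 (-0.23) and LINC00597 (-0.51) among negative values. LINC00472, described as a suppressor of growth in breast cancer, had 6.18 and 6.0 with vehicle and 5.89 and 5.83 with RWF. The second cluster of LINC00869 had 0.0953. None of these 6 passed. With 1 array left out LINC00597 ranged from -0.86 to -0.16 and its adjusted p from 0.0369, without WPMY-1 vehicle replicate 2, to 0.682. LINC01164 passed with dim clusters left out (adjusted p = 0.047) and with 1 cluster per gene (0.0363), and LINC00237 with 1 cluster per gene (0.0432).

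In BPH-1 the smallest p belonged to LINC00278. It reached 5 in the RWF-treated BPH-1 group alone, so that a positive value there partly follows from the choice. It had 4.88 and 4.78 with vehicle and 5.32 and 5.34 with RWF, a difference of 0.50 (1.42-fold, adjusted p = 0.118). In WPMY-1 it had 3.87 and 3.89 with vehicle and 3.82 and 3.93 with RWF. The BPH-1 arrays were apart and the WPMY-1 values overlapped, and in BPH-1 the gene passed with 1 cluster per gene (adjusted p = 0.0456). LINC01881 had 7.09 and 6.97 with vehicle and 7.44 and 7.34 with RWF in BPH-1, a difference of 0.36 (adjusted p = 0.556), and 0.25 in WPMY-1.

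LINC00273 had the largest negative difference in BPH-1. Its values were 9.07 and 9.21 with vehicle and 8.73 and 8.74 with RWF, a difference of -0.41 (adjusted p = 0.307), and it had -0.21 in WPMY-1. Its second cluster, at a mean of 6.08, had 0.10 in each line, so its clusters disagree. LINC00960 had -0.29 in BPH-1 and its second cluster -0.31, both with an adjusted p above the threshold. LINC01220 (-0.17, or -0.32 to -0.0248 with 1 array left out), LINC00235 (-0.15, or -0.20 to -0.0895) and LINC03009 (-0.13) followed.

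By fold alone, with no test, 2 genes were at least 1.3-fold higher and 1 lower in BPH-1, beside 2.1% of all clusters in either direction. These were LINC00278, LINC02035 and LINC00273, and in all 3 the arrays were apart, while 2 of the 3 had a vehicle group at 5 or more, all but LINC00278. In WPMY-1 3 were higher (LINC02035, LINC00886 and LINC00684, which is now FAM236A) and 3 lower (LINC01551, LINC00597 and LINC00641), beside 6.92%. Here 4 of the 6 had arrays apart, and those of LINC00597 and LINC00641 overlapped. The second cluster of LINC00684, at a mean of 5.11, had -0.0176 in WPMY-1 against 0.38 in the cluster used, so its clusters disagree. The shares of the 139 genes were 2.16% and 4.32%. Without WPMY-1 RWF replicate 1 the 6 genes became 11, and without vehicle replicate 2 they became 10. Arrays of the 2 treatments were apart for 36.7% of the genes in BPH-1, beside 34.4% of all clusters, and for 48.9% in WPMY-1, beside 50.6%.

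**Figure D4:**
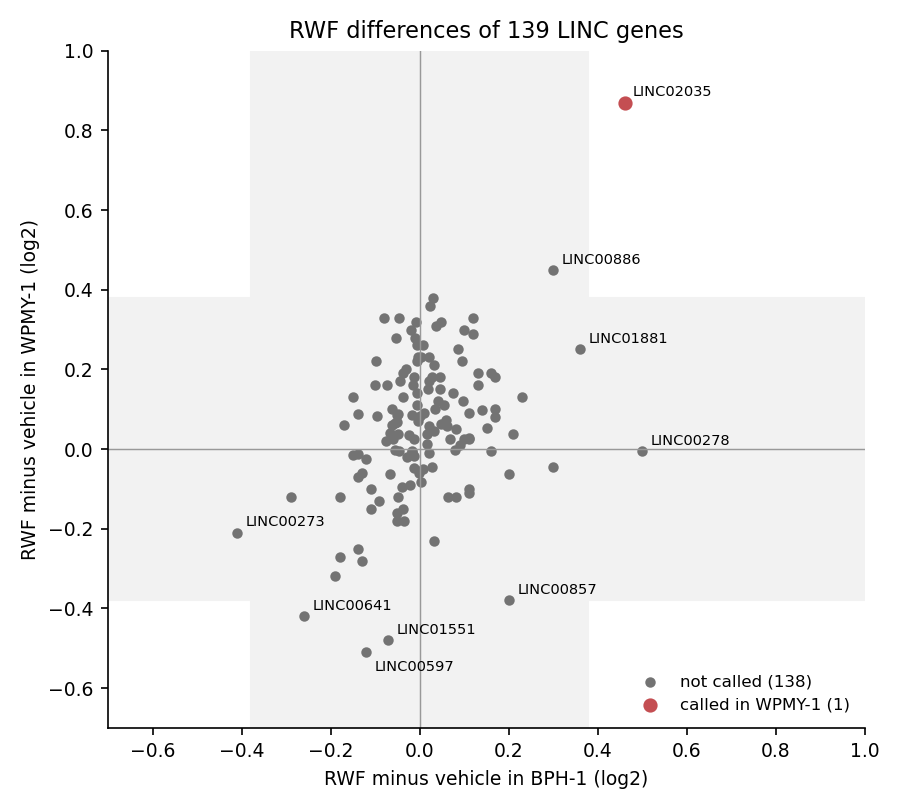
RWF minus vehicle on the log2 scale in BPH-1 (x axis) and WPMY-1 (y axis) for the 139 LINC genes, with grey bands for differences under 1.3-fold and the gene called in WPMY-1 in red. Only LINC02035 lies outside both bands, at 0.46 and 0.87.

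**Figure D5:**
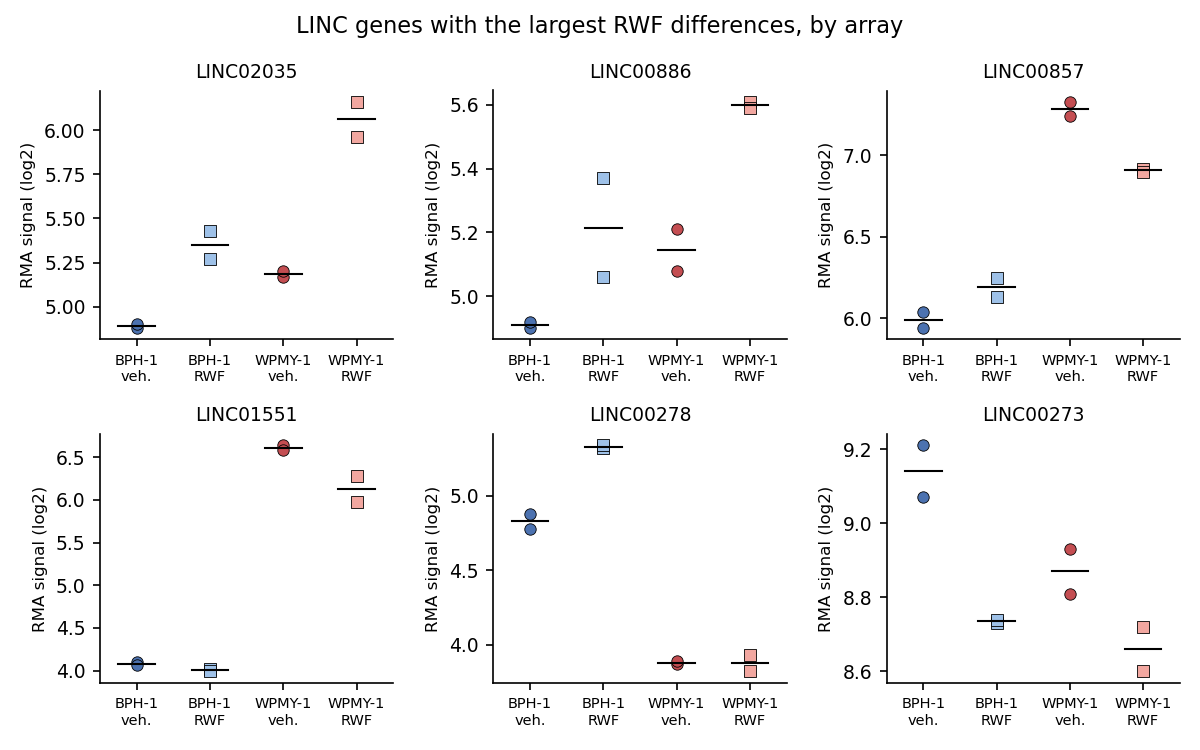
RMA signal on the log2 scale (y axes, which differ between panels and do not start at 0) by group for 6 LINC genes with large RWF differences, with 1 point per array and a line at the mean of 2 arrays. LINC02035 and LINC00886 are higher with RWF in both lines, LINC00857 is higher with RWF in BPH-1 (0.20) and lower in WPMY-1 (-0.38), and LINC00278 is higher with RWF on both BPH-1 arrays.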

How the data were processed

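The authors deposited log2 values, 1 per transcript cluster and array, for 67528 clusters on 8 Affymetrix Human Transcriptome Arrays. RMA is named, without a version, in the submitters' processing notes. It sets the arrays on a common scale, which partly removes a shift of all genes. Genes were named from the platform annotation. The members and lists were chosen with earlier results of these data known. The authors' genome build is not given in the sources used here, so RefSeq (GRCh38.p14) served for names, neighbours and start regions alone. Genes placed on alternate loci alone were left out of the neighbours in part, by a short list of symbols that did not hold LILRA3. LINC00685 has 2 clusters with the same values and was counted once, and 23 clusters that name a LINC gene with another gene were left out.

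Differences were tested with limma 3.58.1 in R 4.3.3 on 4 groups, with 4 residual and 4.337 prior degrees of freedom and Benjamini-Hochberg adjustment over all clusters at 0.05, and the step was tested on simulated data. Named genes are the 10 brightest, the 10 largest called differences between the lines per direction, the 5 smallest p per direction for RWF, the 5 smallest interaction p, genes moving in both lines, those next to the threshold, list members and neighbours. LINC00641 and LINC00684 were named after their values were seen. Figures were made with Python 3.11.15 and matplotlib 3.10.9. The deviations of same-numbered arrays correlated at 0.125 for BPH-1 and -0.0256 for WPMY-1. These values over all clusters cannot settle whether the numbers pair the arrays, and the main fit did not pair them. Alternatives were other normalizations, filters, levels and variances, a replicate block, the methods' t-test and each array left out in turn. The restrictions to lncRNA genes and to genes with a vehicle group at 5 or more, and the fold with arrays apart were added after seeing the data.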

Additional observations from a re-analysis of the deposited data

How the results depend on the processing

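The 32 calls between the lines became 18 with a level threshold of 6, which keeps fewer genes, 0 with the methods' t-test after adjustment (37 at an unadjusted p) and 21 to 32 with 1 array left out. The replicate block gave 34 calls between the lines, 0 in BPH-1, 1 in WPMY-1 and 0 for the interaction, where LINC00707, LINC00229 and LINC03027 gained a call between the lines (adjusted p of 0.0184, 0.0485 and 0.0415) and LINC00893 lost one (0.0823). The 0 calls in BPH-1 became 1 with 1 cluster per gene and 9 with the methods' t-test unadjusted, and stayed at 0 with any 1 array left out. The 1 call in WPMY-1 became 2 after median centring, 5 with dim clusters left out, 6 with 1 cluster per gene, which adjust over fewer clusters, 0 and 19 with the methods' t-test after and before adjustment, and 1 to 2 with 1 array left out. Past 1.3-fold, the 3 genes in BPH-1 became 0 at 1.5-fold and 3 to 4 with 1 array left out, and the 6 in WPMY-1 became 2 with a level threshold of 6, 1 at 1.5-fold and 7 to 11 with 1 array left out. Of the 20 named differences between the lines, 14 were called in all 8 fits with 1 array left out, and none of these 20 changed sign under the alternatives run for them. Leaving out genes that reached 5 in RWF groups alone, an alternative chosen after seeing the data, left 1 call in WPMY-1. For the interaction, which uses all groups, a fit on fewer groups does not exist and the methods' t-test was not run.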

Other observations

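Of the 399 LINC genes under the level threshold, 3 were higher in WPMY-1 and 9 higher in BPH-1 between the vehicle-treated lines. Over all clusters, 7.82% were called higher in WPMY-1 and 8.82% in BPH-1. LINC00923 had 4.27 in BPH-1 and 3.15 in WPMY-1, a difference of -1.13 (adjusted p = 8.51e-05 by limma). LINC00594 had -0.91 and LINC00260 0.80. For LINC00923, LINC00594 and LINC00260 the vehicle means of both lines lay below the median of the arrays, so these signals may be background. LINC00161 had 2.94 with vehicle and 3.74 with RWF in WPMY-1, a difference of 0.80 (adjusted p = 0.0164), with both group means below the median of the arrays. These genes were chosen after their values were seen. Among the 12 clusters at 5 or more that name a LINC gene together with another gene, the one annotated to LINC00673 and LINC00511 had -1.05 between the lines (adjusted p = 0.000491). MIR99AHG, a microRNA host gene that is no LINC gene by symbol, fell with RWF in WPMY-1 from 6.63 to 5.52 (-1.11, adjusted p = 0.00945).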
